A study of Mus musculus with 9 samples.

Results

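The genes examined were 8 of the 52025 genes listed in each expression table: Esr1, Esr2, Pgr, Nr3c1, Nr3c2, Pgrmc1, Pgrmc2 and Greb1. They comprise the estrogen receptors, the nuclear progesterone receptor, the glucocorticoid and mineralocorticoid receptors, a pair of membrane progesterone receptor components and an estrogen-induced coregulator, and they were found by gene name, 1 row each. RNA came from the ovaries of juvenile Kunming mice on postnatal day (PD) 14, PD15 or PD16, with 3 libraries for each day and 9 in all. The labels name no altered gene and no treatment, so the days differ by age as far as they tell. The study asked what changes in the ovary when follicles first form an antrum, the fluid-filled cavity that opens among the granulosa cells of growing follicles, an event it abbreviates as iFFA. The replicates of a day were described as independent ovaries, and whether each came from a different mouse, or from a pool, was not given in the sources used here.

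Steroid receptors are proteins that bind a steroid and then regulate transcription. Esr1, Esr2, Pgr, Nr3c1 and Nr3c2 encode nuclear receptors, which in the unbound state are held by chaperones of the heat shock family and, once bound, recruit coactivators or corepressors at response elements in DNA. Esr2 is the main estrogen receptor of granulosa cells, whereas Esr1 is better known from theca and interstitial cells. Pgr is known for its induction in granulosa cells by the ovulatory surge of luteinizing hormone. Pgrmc1 and Pgrmc2 belong to a different family, small heme-binding membrane proteins, and Greb1 is a coregulator first described through its induction by estrogen.

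The label of the sample source is granulosa cells, whereas the tissue label and the methods give whole ovaries. The markers of several ovarian cell types were present. The summed FPKM of 10 granulosa markers was 2664 to 3525 across the libraries, with Inha, a subunit of inhibin, the most abundant. The 10 oocyte markers summed to 989 to 1402, led by Zp3, a protein of the egg coat, and the 9 theca and interstitial markers to 1330 to 2446, led by Hsd3b1. The 8 stromal markers summed to 545 to 709, and no marker of any list was at 0 in every library. The libraries were therefore read as ovaries, in which fewer cells of a type and less RNA per cell cannot be told apart. The depth, derived from the tables, was 20.4 to 28.7 M fragments per library. Between 14590 and 14923 genes per library were above 1 FPKM, that is, 1 fragment per kilobase of transcript and M mapped fragments.

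The promoters are shown for Esr2 and Pgrmc1, the members whose libraries separated between days most clearly, and for Greb1, the estrogen-induced member. Each is the 250 bases before the annotated start in RefSeq on GRCm38.p6, read 5′ to 3′ on the strand of the gene, with the named motif in capitals. The window of Esr2 is chr12:76177260-76177509 (minus strand, 56.4% GC), with the E-box CACGTG, which begins 72 bases before the start. The window of Pgrmc1 is chrX:36597943-36598192 (plus strand, 69.6% GC), with 4 GC boxes, GGGCGG on either strand, which begin 90, 64, 45 and 31 bases before the start. The window of Greb1 is chr12:16800887-16801136 (minus strand, 65.2% GC), with the estrogen response half-site AGGTCA on the opposite strand, 88 bases before the start.
Esr2: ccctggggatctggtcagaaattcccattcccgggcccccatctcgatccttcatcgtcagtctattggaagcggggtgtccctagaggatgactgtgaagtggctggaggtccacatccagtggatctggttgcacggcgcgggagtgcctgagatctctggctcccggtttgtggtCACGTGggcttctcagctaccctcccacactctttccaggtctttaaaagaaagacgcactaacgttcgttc
Pgrmc1: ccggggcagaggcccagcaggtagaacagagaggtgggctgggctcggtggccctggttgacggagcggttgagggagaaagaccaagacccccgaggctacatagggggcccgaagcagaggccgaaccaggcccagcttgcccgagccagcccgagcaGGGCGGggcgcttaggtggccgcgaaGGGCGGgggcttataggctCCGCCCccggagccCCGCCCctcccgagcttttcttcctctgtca
Greb1: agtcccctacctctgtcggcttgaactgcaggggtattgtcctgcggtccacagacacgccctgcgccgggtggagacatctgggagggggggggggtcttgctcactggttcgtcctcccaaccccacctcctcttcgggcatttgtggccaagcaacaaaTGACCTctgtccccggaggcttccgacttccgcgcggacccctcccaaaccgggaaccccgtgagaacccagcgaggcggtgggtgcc

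Windows were held for 7 of the 8 members, 9 windows in all, and motifs were searched on both strands. The full estrogen response element, GGTCA and TGACC with any 3 bases between them, was in 0 of the 9 windows and in 0.0639% of all 32851 windows. Its half-site AGGTCA, whose letters also lie within the site CAAGGTCA, was in 1 member window, that of Greb1, and in 14% of all windows. The full glucocorticoid response element, AGAACA and TGTTC with any 3 bases between them, was in 0 of the 9 and in 0.0304% of all windows, and its half-site TGTTCT in 1 of the 9, that of Pgrmc1, and in 16.1% of all. The site CAAGGTCA, read by receptors of the NR5A group, was in none of the 9 windows and in 1.33% of all. A GC box was in 4 of the 9 windows and in 32.7% of all, and CCAAT in 6 of the 9 and in 33.8% of all. The E-box CACGTG was in 2 windows, those of Esr2 and Pgrmc2, and in 6.02% of all, and TATAAA in 1, that of Pgr, and in 12.4% of all. These are matches of letters in short windows and not measured binding.

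The levels of the 8 genes spanned from above 100 FPKM to below 1, and since FPKM is per length they can be ordered. Pgrmc1 was the highest (mean over the 9 libraries 97.0 FPKM), followed by Esr2 (60.7), Greb1 (43.5), Pgrmc2 (29.7), Nr3c1 (12), Esr1 (4.23), Nr3c2 (0.836) and Pgr (0.689). Among the 15495 genes tested, which averaged over 1 FPKM in 1 or more of the days, 97.1% lay below Pgrmc1, 94.8% below Esr2, 92.2% below Greb1 and 87.2% below Pgrmc2. For Nr3c1 the share below was 65.3% and for Esr1 it was 35.2%. Pgr and Nr3c2 did not reach the minimum, so 6 of the 8 members entered the test. Neighbours in this order did not overlap over the 9 libraries, with 2 exceptions. Esr2 was above Greb1 in 8 of 9 libraries and Nr3c2 above Pgr in 6 of 9, with overlapping ranges.

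**Figure D1:**
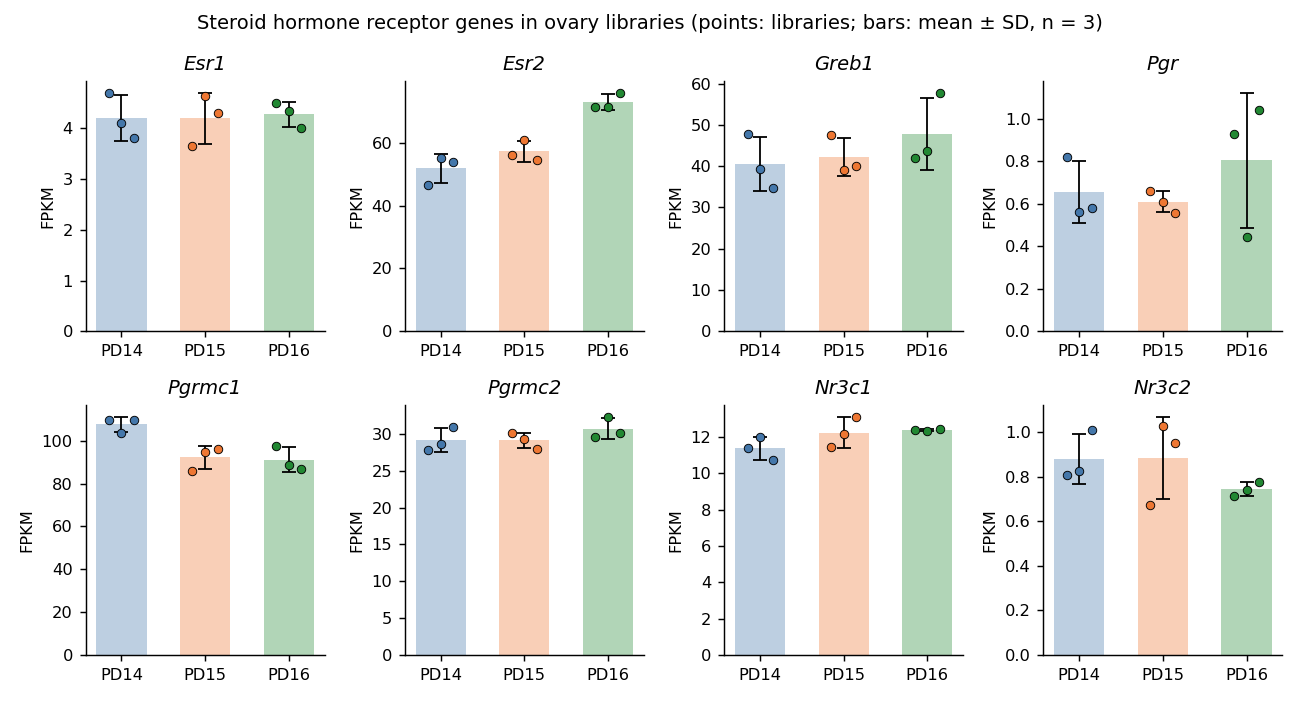
FPKM (vertical axes, each from 0) of the 8 genes on PD14, PD15 and PD16, with points for libraries, bars for the mean and error bars for the SD of 3 libraries. The 3 PD16 libraries of Esr2 lie between 71.3 and 75.9, above the other 6, and the 3 PD14 libraries of Pgrmc1 between 103.7 and 109.8, above the other 6.

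Esr2 was the member that rose. This gene (ENSMUSG00000021055, chr12:76120419-76177259 on GRCm38, minus strand, 10 merged exons) encodes estrogen receptor beta. Its FPKM was 46.7, 55.2 and 53.9 in the PD14 libraries, 56.2, 61.0 and 54.7 in the PD15 libraries, and 71.5, 71.3 and 75.9 in the PD16 libraries. Every PD16 library was above every library of PD14 and PD15, whereas PD14 and PD15 overlapped. Of all genes tested, 15% had every PD16 library above PD14 and 9.85% above PD15. The day means were 52.0 ± 4.60, 57.3 ± 3.30 and 72.9 ± 2.58 FPKM (SD, n = 3), which is 40.3% higher on PD16 than on PD14. On the log2(FPKM + 1) scale the change from PD14 to PD16 was 0.48 (SE 0.076, 95% interval 0.31 to 0.66), and limma, adjusted over all 15495 genes by the Benjamini-Hochberg method, gave an adjusted p of 0.0151. Of all genes tested, 4.25% were called in this comparison, 2.36% as higher, and Esr2 was 1 of the 6 members tested that was called.

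By its estimate, and without a test of 1 step against the other, the step from PD15 to PD16 held most of the difference. It was 0.34 (95% interval 0.17 to 0.52) with a limma adjusted p of 0.0786, which missed the threshold of 0.05. The step from PD14 to PD15 was 0.14 (95% interval -0.03 to 0.31) with an adjusted p of 0.427, and 0.067 to 0.19 when each library was left out, the lowest without PD14 replicate 1. Over the 3 days together, limma's F test gave Esr2 an adjusted p of 0.0282, where 3.03% of all genes were called. An exact permutation test over all 280 groupings of the libraries, which takes no direction, gave p = 0.00714. Between 2 days an exact permutation test of 3 against 3 libraries cannot go below 0.1, which was its value for PD16 against each earlier day. The call between PD16 and PD14 was lost without PD16 replicate 1, when Esr2 kept a change of 0.50 and had an adjusted p of 0.0568. The F test lost its call without PD14 replicate 3, PD15 replicate 1 or any 1 of the PD16 replicates, with adjusted p up to 0.0829. It was also lost with no expression filter, under quantile normalization, under TPM scaling and with the replicate block, with adjusted p up to 0.0747.

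Granulosa markers did not move as a block beside Esr2. Their summed FPKM was 2873 to 3525 on PD14, 2664 to 3062 on PD15 and 2811 to 3307 on PD16, and the days overlapped. Of the 10 markers, 3 were called between PD16 and PD14, beside 4.25% of all genes. Amh, the anti-Müllerian hormone made by granulosa cells of growing follicles, was higher by 0.47, and Cyp19a1, the aromatase that makes estradiol, and Kitl, the ligand of the oocyte receptor Kit, were lower by 0.84 and 0.50. The median log2 change of the 10 was -0.18. Oocyte markers summed to 1048 to 1301 on PD14, 1322 to 1402 on PD15 and 989 to 1042 on PD16, with PD15 above both other days. Between PD16 and PD14 their median log2 change was -0.25 and 1 of the 10, Bmp15, a growth factor of the oocyte, was called higher (0.39). Between PD16 and PD15, the step with the larger estimate for Esr2, the median log2 change of the oocyte markers was -0.31. In that step 1 of the 10, Zp2 of the egg coat, was called lower (-0.61). Over the same days immune markers summed to 19.2 to 21.9 on PD14 and 24.99 to 31.28 on PD16, with 1 of 5 tested, Lyz2, a lysozyme of macrophages, called higher (0.74), while surface epithelium and smooth muscle markers, given beside Pgrmc1, held 3 lower calls and 1 call each way. Plin1, the fat marker tested, was called lower between PD16 and PD14 (-0.50). Endothelial markers summed to 57.6 to 60.9 on PD14 and 51.8 to 54.5 on PD16, with 0 called. The part of such shifts in the Esr2 result was not tested.

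Esr1, which encodes estrogen receptor alpha (ENSMUSG00000019768, chr10:4611593-5005614, plus strand, 19 merged exons), did not separate the days. Its FPKM was 4.70, 4.11 and 3.82 on PD14, 3.65, 4.64 and 4.30 on PD15, and 4.50, 4.34 and 4.01 on PD16. The libraries of all days overlapped. The means were 4.21 ± 0.450, 4.20 ± 0.504 and 4.28 ± 0.246 FPKM (SD, n = 3), and the log2 change from PD14 to PD16 was 0.02 with a 95% interval of -0.18 to 0.23 (limma adjusted p = 0.903). The gene was read from 1062 to 1686 fragments per library, so counting alone gives a coefficient of variation (CV) of 2.44% to 3.07%, against 5.74% to 12% between the libraries of a day.

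Esr2 exceeded Esr1 in every library. The ratio of their FPKM averaged 12.5 ± 2.25 on PD14, 13.7 ± 1.43 on PD15 and 17.1 ± 1.60 on PD16 (SD, n = 3). The PD16 libraries ran from 15.9 to 18.9, above the 9.94 to 14.1 of PD14 and the 12.7 to 15.4 of PD15. These ratios restate the levels of the paired genes and were not tested.

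**Figure D2:**
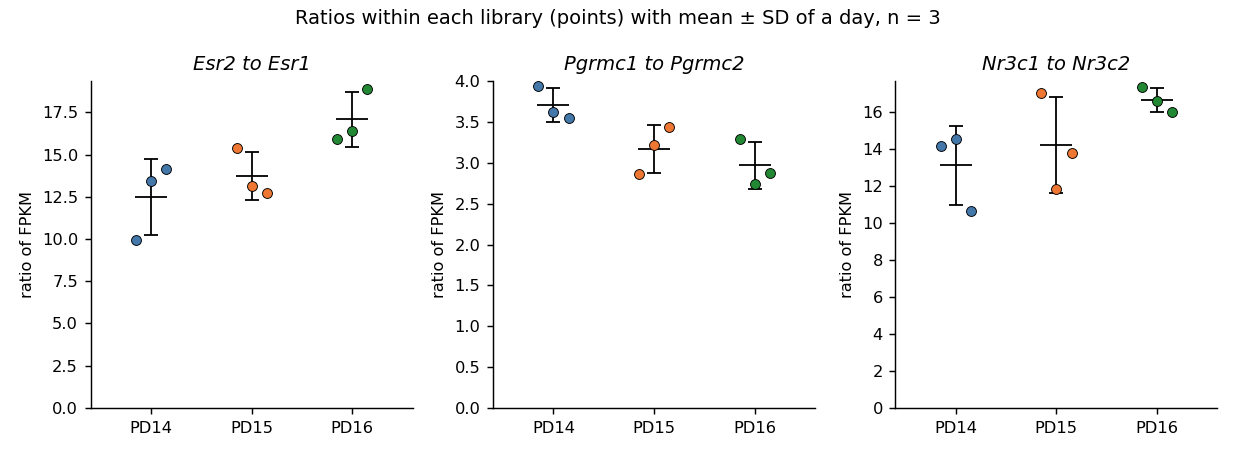
Ratio of FPKM within each library (vertical axes, each from 0) for Esr2 to Esr1, Pgrmc1 to Pgrmc2 and Nr3c1 to Nr3c2 by day, with points for libraries and the mean and SD of 3 libraries. The ratio of Esr2 to Esr1 averages 12.5, 13.7 and 17.1, and that of Pgrmc1 to Pgrmc2 3.70, 3.17 and 2.97.

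Greb1 (ENSMUSG00000036523, chr12:16670615-16800886, minus strand, 35 merged exons) was abundant and variable within each day. Its FPKM was 47.7, 39.2 and 34.6 on PD14, 47.6, 39.0 and 40.1 on PD15, and 42.0, 43.6 and 57.7 on PD16. A single library, PD16 replicate 3, stood above the rest, and the days overlapped. The means were 40.5 ± 6.65, 42.2 ± 4.67 and 47.8 ± 8.66 FPKM (SD, n = 3). The log2 change from PD14 to PD16 was 0.23, with a 95% interval of -0.10 to 0.56 and a limma adjusted p of 0.382, and when each library was left out it ran from 0.09 without PD16 replicate 3 to 0.35 without PD14 replicate 1. With 6749 to 14068 fragments per library the counting CV was 0.843% to 1.22%, whereas libraries of a day varied by 11.1% to 18.1%. An opposite-strand gene, Gm48140, shares 736 exonic bases (7.68%) with Greb1, and whether strand was used in counting is not given in the sources used here.

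Pgrmc1 was the most abundant member and the one whose level was lower after PD14. It is located at chrX:36598206-36606079 (ENSMUSG00000006373, plus strand, 3 merged exons). Its FPKM was 109.7, 103.7 and 109.8 on PD14, 86.0, 94.5 and 96.1 on PD15, and 97.7, 88.7 and 86.8 on PD16. Every PD14 library was above every later library, and PD15 and PD16 overlapped. The means were 107.7 ± 3.51, 92.2 ± 5.43 and 91.1 ± 5.84 FPKM (SD, n = 3), a difference of -14.4% on PD15 and -15.5% on PD16.

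The difference of Pgrmc1 was larger than the spread between libraries but did not pass the adjustment over all genes. The log2 change from PD14 was -0.22 on PD15 (95% interval -0.38 to -0.06) and -0.24 on PD16 (95% interval -0.40 to -0.08). The limma p was 0.0115 before and 0.195 after adjustment on PD15, and 0.00758 before and 0.0879 after on PD16. In these comparisons 14.7% and 22.8% of all genes had an unadjusted p under 0.05, and 10.2% and 13.5% had every later library below every earlier one, so such a pattern was common. The exact permutation test over 3 days gave p = 0.0429 before any adjustment, and limma's F test an adjusted p of 0.122. Both comparisons share the PD14 libraries. From PD15 to PD16 the change was -0.02 (95% interval -0.18 to 0.14).

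Theca and interstitial markers summed to 1816 to 2446 FPKM on PD14, 1330 to 1955 on PD15 and 1334 to 1807 on PD16. Hsd3b1 alone held most of this sum, with 1460 to 2091 on PD14 and 1062 to 1472 on PD16. Over the 9 genes the median log2 change was -0.39 between PD15 and PD14, with 7 lower, and -0.02 between PD16 and PD14, with 5 lower and 4 higher. The smallest limma adjusted p in these comparisons was 0.0743. Red blood cell markers, led by Hba-a1, summed to 105.2 to 147.4 on PD14, 46.4 to 63.2 on PD15 and 60.8 to 116.2 on PD16, and 1 of the 5 was called lower on PD15. Of the 4 fat markers 1 was tested, Plin1, a coat protein of lipid droplets. It was 6.31 to 7.71 FPKM on PD14, 4.10 to 4.32 on PD15 and 3.89 to 5.37 on PD16, and was called lower on both later days. Markers of the oviduct and ovarian surface epithelium summed to 61.3 to 70.4, 54.5 to 62.1 and 47.1 to 52.3 on the 3 days, and 3 of the 6 tested, the keratins Krt8, Krt18 and Krt19, were called lower on PD16 than on PD14. Of the 6 smooth muscle markers 2 were called between those days, Rgs5, a pericyte gene, as lower (-0.62) and Cnn1, a calponin, as higher (0.61), and the list median was 0.20. The 6 endothelial markers summed to 57.6 to 60.9 on PD14, 53.1 to 57.3 on PD15 and 51.8 to 54.5 on PD16, with a median of -0.11 on either later day. The part of these shifts in the Pgrmc1 levels was not tested.

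Pgrmc2 (ENSMUSG00000049940, chr3:41066326-41083046, minus strand, 3 merged exons), the paralog of Pgrmc1, kept close to 30 FPKM. Its FPKM was 27.8, 28.6 and 31.0 on PD14, 30.1, 29.3 and 27.96 on PD15, and 29.6, 32.4 and 30.2 on PD16, and all days overlapped. The log2 change from PD14 to PD16 was 0.07 with a 95% interval of -0.06 to 0.21 (limma adjusted p = 0.502). Pgrmc1 exceeded Pgrmc2 in every library, by a mean factor of 3.70 ± 0.208 on PD14, 3.17 ± 0.292 on PD15 and 2.97 ± 0.290 on PD16 (SD, n = 3). Both genes were well covered, with 3740 to 5128 fragments per library for Pgrmc1 and 2044 to 2604 for Pgrmc2.

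Pgr, the nuclear progesterone receptor (ENSMUSG00000031870, chr9:8899833-8968611, plus strand, 8 merged exons), was the least abundant member. Its FPKM was 0.821, 0.562 and 0.580 on PD14, 0.657, 0.610 and 0.558 on PD15, and 0.928, 0.443 and 1.04 on PD16. The PD16 libraries held both the lowest and the highest value. These values stand for 86 to 226 fragments per library. The day means were 0.654 ± 0.145, 0.608 ± 0.0497 and 0.804 ± 0.317 FPKM (SD, n = 3), the CV within PD16 was 39.4% against a counting CV of 6.65% to 10.8%, and the exact permutation test over 3 days gave p = 0.582. The membrane progesterone receptor components were thus listed far above the nuclear receptor, with Pgrmc1 at 97.0 and Pgr at 0.689 FPKM on average.

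Nr3c1, the glucocorticoid receptor (ENSMUSG00000024431, chr18:39410545-39519421, minus strand, 13 merged exons), was listed at 11.4, 11.99 and 10.7 FPKM on PD14, 11.5, 12.1 and 13.1 on PD15, and 12.4, 12.3 and 12.4 on PD16. The PD16 libraries were all above those of PD14, as in 15% of all genes tested, and overlapped with those of PD15. The log2 change from PD14 to PD16 was 0.11 (95% interval -0.03 to 0.25, limma adjusted p = 0.312). The FPKM of Nr3c1 did not resolve into whole fragments, so no fragment number is given for it.

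Nr3c2, the mineralocorticoid receptor (ENSMUSG00000031618, chr8:76899442-77245012, plus strand, 13 merged exons), stayed near or below 1 FPKM. It was listed at 0.807, 0.825 and 1.01 on PD14, 0.673, 1.03 and 0.952 on PD15, and 0.713, 0.742 and 0.777 on PD16, from 109 to 177 fragments per library. The PD16 libraries were all below those of PD14, as in 13.5% of all genes tested, and overlapped with those of PD15. The exact permutation test gave p = 0.1 for PD16 against PD14, the smallest it allows, and p = 0.407 over the 3 days. Its exons share 247 bases (3.82%) with the opposite-strand gene Gm10649, which was listed at 0.0103 FPKM at most. Nr3c1 exceeded Nr3c2 in every library, with a mean ratio of 13.1 ± 2.14 on PD14, 14.2 ± 2.61 on PD15 and 16.7 ± 0.666 on PD16 (SD, n = 3).

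**Figure D3:**
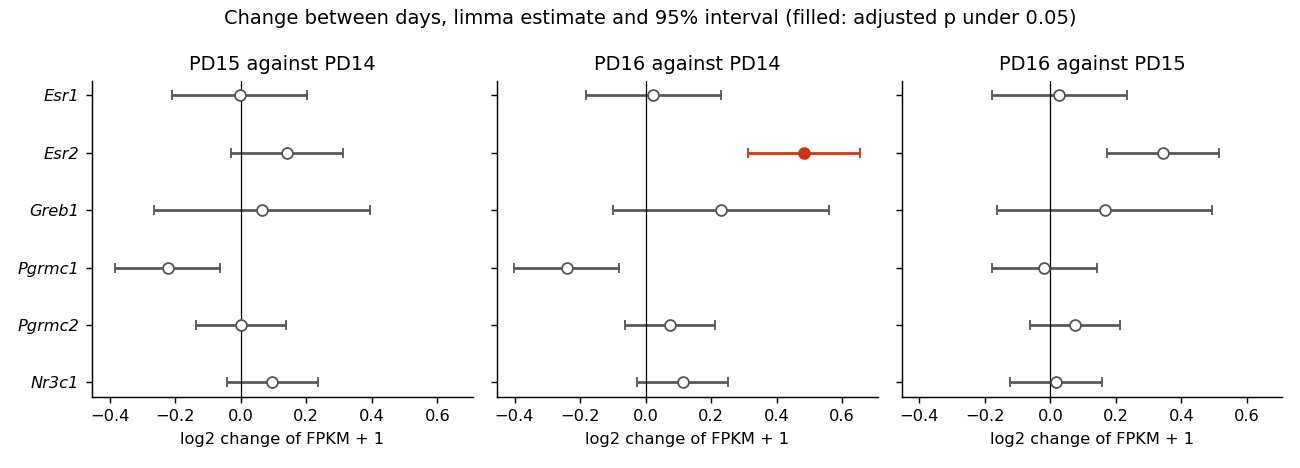
Log2 change of FPKM + 1 (horizontal axes) between days for the 6 tested members, with the limma estimate as a point and its 95% interval as a bar; filled points have an adjusted p under 0.05. The filled point is Esr2 between PD16 and PD14, at 0.48 with an interval of 0.31 to 0.66.

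Between PD15 and PD14, 0 of the 6 tested members were called, where 0.678% of all genes were. In that comparison 1 member, Pgrmc1, had an unadjusted limma p under 0.05, as did 14.7% of all genes. Between PD16 and PD15, 0 of the 6 were called, where 0.729% of all genes were, and 1 member, Esr2, had an unadjusted p under 0.05, as did 14.1% of all genes. Limma-voom on the whole fragments, which left out Nr3c1 and took in Pgr and Nr3c2, also called 0 members in either comparison.

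The genes that work with the receptors were described by 8 lists, of 113 different genes, 94 of which were tested. Between PD16 and PD14, 10 of the 94 were called higher and 5 lower (16.0%, beside 4.25% of all genes, 2.36% higher and 1.89% lower), and PD15 against PD14 and PD16 against PD15 gave 2 higher and 1 lower each (3.19%, beside 0.678% and 0.729%). The genes of the lists were chosen with earlier results known, so this share is a description. The median log2 change over the 94 was 0.06 between PD16 and PD14, and that over all genes tested was 0.01.

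**Figure D4:**
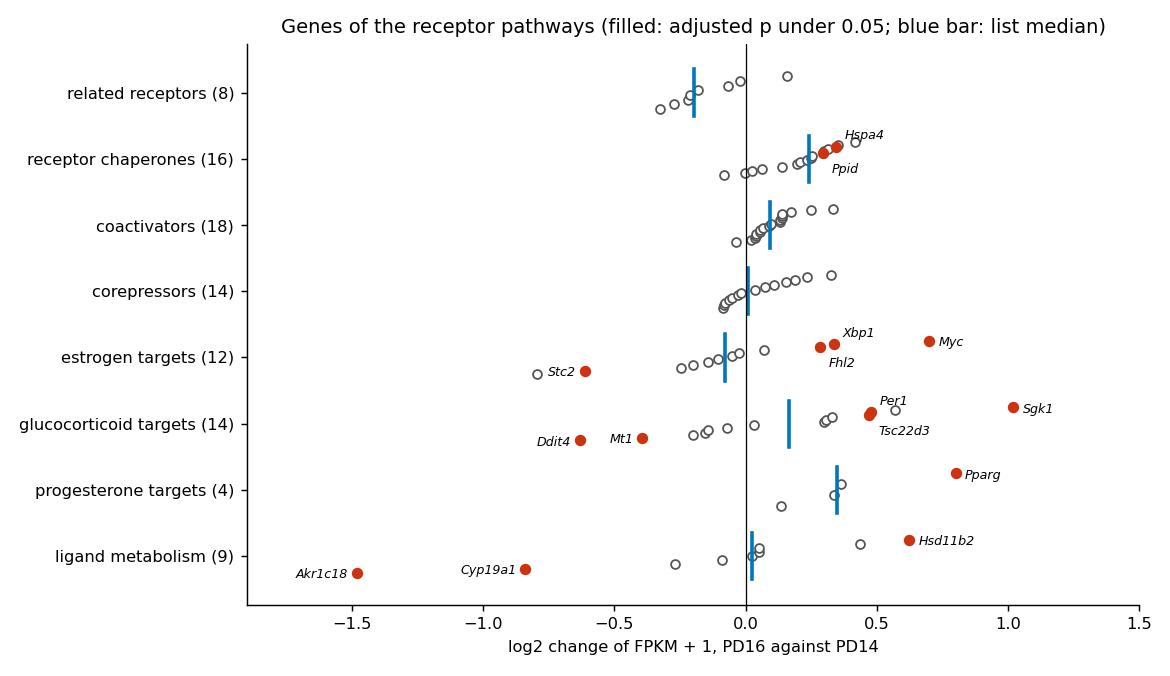
Log2 change of FPKM + 1 between PD16 and PD14 (horizontal axis) for the tested genes of 8 lists (rows, number tested in parentheses), with filled points for an adjusted limma p under 0.05 and a blue bar for the list median. Glucocorticoid targets hold filled points on both sides, from Ddit4 at -0.63 to Sgk1 at 1.02, and the related receptors, coactivators and corepressors hold none.

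Among related receptors, 8 of 11 genes were tested and 0 were called in any comparison. Between PD16 and PD14, 1 of the 8 had an unadjusted limma p under 0.05, as did 22.8% of all genes. In the other comparisons 0 did, beside 14.7% of all genes between PD15 and PD14 and 14.1% between PD16 and PD15. Limma-voom called 0 as well. The median log2 change between PD16 and PD14 was -0.20, and 7 of the 8 were lower on PD16. The most abundant was Nenf, a secreted relative of Pgrmc1, at 123.3, 111.8 and 105.9 FPKM on average on PD14, PD15 and PD16. Gper1, a membrane receptor that responds to estrogen, averaged 1.38, 0.846 and 0.892 FPKM, and Paqr7, a membrane progestin receptor, 8.76, 8.07 and 8.62.

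Of the 16 chaperones, all tested, 2 were called higher between PD16 and PD14, beside 2.36% of all genes. Between PD15 and PD14 and between PD16 and PD15, limma and limma-voom called 0. An unadjusted limma p under 0.05 was reached by 10 of the 16 between PD16 and PD14, beside 22.8% of all genes. It was reached by 5 between PD15 and PD14 and by 1 between PD16 and PD15, beside 14.7% and 14.1% of all genes. Hspa4, a co-chaperone of the Hsp70 system, was 58.2, 56.8 and 53.0 FPKM on PD14 and 73.0, 71.8 and 69.1 on PD16 (log2 change 0.34, SE 0.067, limma adjusted p = 0.0286). Ppid, a cyclophilin found in complexes of Hsp90 with steroid receptors, averaged 25.5 ± 0.906 on PD14 and 31.5 ± 0.977 on PD16 (SD, n = 3; log2 change 0.29, limma adjusted p = 0.0266). The list median was 0.24, with 14 of the 16 higher on PD16. Both calls were lost without any 1 of the PD14 replicates or without PD16 replicate 1 or 2, with adjusted p up to 0.0996. They were also lost with no filter, under TPM scaling and with the replicate block.

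The cofactors moved little. Of 20 coactivators 18 were tested and of 14 corepressors all 14, and 0 were called in any comparison. Between PD16 and PD14, 2 coactivators and 3 corepressors had an unadjusted limma p under 0.05, beside 22.8% of all genes. Between PD15 and PD14 it was 1 of each, beside 14.7% of all genes. Between PD16 and PD15 it was 2 coactivators and 0 corepressors, beside 14.1%. Limma-voom called 0 of either. The coactivators had a median log2 change of 0.09 between PD16 and PD14, with 17 of 18 higher, and the corepressors one of 0.01, with 7 higher and 7 lower. Ncoa1, Ncoa2 and Ncoa3, the p160 coactivators, averaged 7.32, 6.08 and 6.64 FPKM on PD14 and 7.54, 6.35 and 7.37 on PD16.

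Known estrogen targets went both ways. All 12 were tested, and between PD16 and PD14 3 were called higher and 1 lower, with a list median of -0.08. Of all genes tested, 2.36% were called higher and 1.89% lower in this comparison. An unadjusted limma p under 0.05 was reached by 5 of the 12, beside 22.8% of all genes. It was reached by 3 between PD15 and PD14 and by 7 between PD16 and PD15, beside 14.7% and 14.1%. Myc, which encodes a growth-promoting transcription factor, was 14.3, 19.1 and 18.1 FPKM on PD14 and 29.1, 23.2 and 33.5 on PD16 (log2 change 0.70, SE 0.14, limma adjusted p = 0.0294). Xbp1, a transcription factor of the unfolded protein response, averaged 46.1 ± 2.57 and 58.4 ± 2.12 (0.34, adjusted p = 0.0449), and Fhl2, a LIM domain cofactor, 35.9 ± 2.57 and 43.8 ± 0.989 (0.28, adjusted p = 0.0413). Stc2, a secreted glycoprotein, was lower, at 4.67 ± 1.09 and 2.68 ± 0.477 FPKM (-0.61, adjusted p = 0.0411). Between PD15 and PD14 Cited2, a CBP-binding regulator, was called lower, at 35.6 ± 4.06 and 24.1 ± 1.12 (-0.54, adjusted p = 0.0377), and between PD16 and PD15 Fhl2 was called higher by 0.39. In these comparisons 0.678% and 0.729% of all genes were called.

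These estrogen target calls were close to the threshold. The number called between PD16 and PD14 fell from 4 to between 0 and 3 when any 1 library was left out, with 0 without PD14 replicate 3, PD16 replicate 1 or PD16 replicate 3. It was also 0 with no filter, with the replicate block and with only the 2 days compared. Under TPM scaling it was 1, and without the trend it was 2. Without 1 library Myc was called in 5 of 9 fits, Xbp1 and Fhl2 in 2 of 9 each and Stc2 in 1 of 9. Cited2 was called between PD15 and PD14 in 2 of 9, and Fhl2 between PD16 and PD15 in 2 of 9. The latter was also lost with no filter, without the trend and with the replicate block (limma adjusted p up to 0.0811).

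Glucocorticoid targets included the steadiest calls. Of 16 genes 14 were tested, and between PD16 and PD14 3 were called higher and 2 lower, with a median of 0.16. In this comparison 2.36% of all genes were called higher and 1.89% lower. An unadjusted limma p under 0.05 was reached by 10 of the 14, beside 22.8% of all genes. Between PD16 and PD15 1 was called, beside 0.729%, and 5 had such a p, beside 14.1%. Between PD15 and PD14 0 were called, beside 0.678%, and 7 had such a p, beside 14.7%. Sgk1, a kinase that regulates ion channels and a target of both corticosteroid receptors, was 5.24, 5.12 and 4.48 FPKM on PD14, 6.56, 5.75 and 6.54 on PD15, and 9.48, 12.6 and 11.3 on PD16. Its levels on the 3 days did not overlap. Of all genes tested, 15% had every PD16 library above PD14 and 9.85% above PD15. The share with all 3 days apart was not counted. The log2 change of Sgk1 between PD16 and PD14 was 1.02 (SE 0.099, limma adjusted p = 0.00419) and between PD16 and PD15 0.73 (adjusted p = 0.0223). Ddit4, an inhibitor of mTOR signaling, was 57.2, 48.9 and 53.8 FPKM on PD14 and 33.3, 37.8 and 31.2 on PD16 (-0.63, SE 0.085, limma adjusted p = 0.0103). Sgk1 and Ddit4 were called between PD16 and PD14 in all 9 fits that left out 1 library and in all 13 other alternatives. The Sgk1 call between PD16 and PD15 held in 6 of 9 fits without 1 library and was lost without PD15 replicate 1, PD15 replicate 2 or PD16 replicate 3, with no filter and with the replicate block (adjusted p up to 0.0817).

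Tsc22d3, which encodes the glucocorticoid-induced leucine zipper, averaged 11.6 ± 0.576 FPKM on PD14 and 16.5 ± 1.33 on PD16 (0.47, limma adjusted p = 0.0224). Per1, a clock gene, averaged 4.71 ± 0.505 and 6.96 ± 0.927 (0.48, adjusted p = 0.0294), and Mt1, a metallothionein, was lower, at 53.9 ± 1.94 and 41.0 ± 4.52 (-0.39, adjusted p = 0.0363). Fkbp5, a co-chaperone induced by glucocorticoids, averaged 38.4 and 47.7 FPKM and was not called (adjusted p = 0.142). In fits without 1 library, Tsc22d3 was called in 4 of 9, Per1 in 5 of 9 and Mt1 in 1 of 9.

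Of the 11 progesterone targets, 4 were tested, and 7 were below the minimum level. Of the 4, 1 was called between PD16 and PD14 and 1 between PD15 and PD14, beside 4.25% and 0.678% of all genes. Between PD16 and PD15 0 were called, beside 0.729%. An unadjusted limma p under 0.05 was reached by 3, 2 and 4 genes in these comparisons, in that order, beside 22.8%, 14.7% and 14.1%. Pparg, a nuclear receptor of lipid metabolism, was 6.61, 7.99 and 7.93 FPKM on PD14 and 17.3, 11.4 and 13.3 on PD16 (log2 change 0.80, SE 0.14, limma adjusted p = 0.0234), and its call was lost without PD14 replicate 1 or 3 or PD16 replicate 1. Ihh, a hedgehog ligand that granulosa cells send to theca cells, averaged 17.5 ± 2.03 FPKM on PD14 and 28.03 ± 3.88 on PD15 (0.65, limma adjusted p = 0.0473). Ihh kept its call in 1 of the 9 fits without 1 library and in 9 of the 13 other alternatives. The call was lost with no filter, under TPM scaling, without the trend and with only the 2 days compared (limma adjusted p up to 0.133).

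Among the enzymes and carriers that set the supply of steroids, 1 gene, Akr1c18, held the widest changes. Of 14 genes 13 were matched and 9 tested. Between PD16 and PD14 1 was called higher and 2 lower, beside 2.36% and 1.89% of all genes. Between PD15 and PD14 1 was called higher and between PD16 and PD15 1 lower, where 0.678% and 0.729% of all genes were called. An unadjusted limma p under 0.05 was reached by 5, 6 and 3 genes in these comparisons, in that order, beside 22.8%, 14.7% and 14.1%. Akr1c18, which inactivates progesterone, was 10.5, 4.73 and 8.95 FPKM on PD14, 17.9, 19.7 and 23.2 on PD15, and 1.95, 2.55 and 1.89 on PD16. All 3 days were apart, with PD15 the highest. Of all genes tested, 13.5% had every PD16 library below PD14, and the share with all 3 days apart was not counted. The log2 change of Akr1c18 was -2.76 between PD16 and PD15 (SE 0.23, limma adjusted p = 0.00149), -1.48 between PD16 and PD14 (adjusted p = 0.0148) and 1.28 between PD15 and PD14 (adjusted p = 0.0458). The first was called in all 9 fits without 1 library, the second in 7 of 9, and the third in 2 of 9. The third was also called in only 6 of the 13 other alternatives. It was lost with pseudocounts of 0.1 and 0.5, no filter, no trend, robust limma settings, the replicate block and only the 2 days compared (limma adjusted p up to 0.142).

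Hsd11b2, which inactivates glucocorticoids, was 26.6, 26.8 and 21.9 FPKM on PD14, 43.2, 33.1 and 33.7 on PD15, and 39.1, 35.7 and 42.6 on PD16. The change between PD16 and PD14 was 0.62 (limma adjusted p = 0.0262). Cyp19a1 was 6.61, 3.77 and 4.95 FPKM on PD14 and 2.54, 2.69 and 1.89 on PD16 (-0.84, limma adjusted p = 0.0316). Without 1 library Hsd11b2 was called in 5 of 9 fits and Cyp19a1 in 4 of 9. Hsd17b1, which makes estradiol from estrone, averaged 176.4, 146.7 and 146.6 FPKM and was not called, and Hsd11b1, which regenerates glucocorticoids, was listed at 0.139 FPKM at most.

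Across the 9 libraries the pattern most like that of Esr2, by Pearson's r of log2(FPKM + 1), was that of RP24-302M3.5 (r = 0.987), then Arhgap28 (0.977) and Tle1, a Groucho family corepressor (0.972). Arhgap28 averaged 49.6 FPKM on PD14 and 65.4 on PD16, and Tle1 8.62 and 12.3. For Pgrmc1 the nearest genes were Rrad (0.988), Pygl, the liver glycogen phosphorylase (0.966), and Pde8b, a cAMP phosphodiesterase (0.964). For Greb1 they were Surf6 (0.969), Zfp219 (0.952) and Chsy1 (0.952), and for Esr1 Stk40 (0.917), Ctsa (0.889) and Gm17655 (0.884). For Nr3c1 they were Tmtc4 (0.931), Kdm5a (0.927) and Eea1 (0.913), and for Pgrmc2 Dnase1 (0.976), Mrps18a (0.895) and Mrgprf (0.892). Each r is the highest of many over 9 points that share libraries and depth, and no p is given. Between members, r was -0.67 for Esr2 with Pgrmc1, 0.60 for Esr2 with Pgrmc2, 0.36 for Esr2 with Greb1 and -0.00 for Esr2 with Esr1.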

How the data were processed

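RNA sequencing libraries of ovaries from PD14, PD15 and PD16 (3 each, grouped by the day in the labels) were analysed. Per the study's methods, total RNA was taken up in TRIzol, and NEBNext Ultra libraries were run on an Illumina HiSeq. The submitters' processing notes name HISAT2 2.0.5 and the genome build mm10; the counting tool and the annotation release are not given in the sources used here. The authors deposited FPKM, 1 table per library, and these values were used without further scaling. Exon lengths and positions came from GENCODE M21 (GRCm38), which held 50376 of the 52025 genes. From these lengths and the FPKM steps, 93.6% to 94.1% of low values in a library were whole fragments (tolerance 0.01), which gave the depth of 20.4 to 28.7 M fragments. For 46874 genes, 7 of the 8 members among them, values were whole in all libraries (tolerance 0.05). Median-ratio factors between libraries were 0.998 to 1.00, whereas FPKM totals ran from 308363 to 342803. The alternative with median-ratio factors therefore changed the values little. The depth is the total that the FPKM steps imply, and a scaling before deposition would change it. No 2 libraries held identical values.

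Genes that averaged over 1 FPKM in 1 or more of the days entered the test on log2(FPKM + 1), a scale that understates changes of low genes, with limma 3.58.1 (trend, all 9 libraries in 1 model) in R 4.3.3, adjusted by the Benjamini-Hochberg method and called at an adjusted p under 0.05. Single members were also compared by exact permutation tests, two-sided between 2 days and without direction over 3 days (NumPy 2.4.6 in Python 3.11.15). Tables and plots were made with pandas 2.3.3 and Matplotlib 3.10.9. The fit was tested on simulated data. Counting CVs cover counting error only, and p-values the spread between these libraries. Alternatives were other pseudocounts, filters, scalings and limma settings, a replicate block, each library left out, and limma-voom on whole fragments, which was added after the data were seen.

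Members, lists and tests were chosen with earlier results of these data known. Named were all members, the called genes of each list (at most 5 by size), the 3 genes most like each member and the leading gene of a marker list. Other list genes (Nenf, Gper1, Paqr7, the p160 genes, Fkbp5, Hsd17b1, Hsd11b1) and the called markers Amh, Kitl, Zp2, Bmp15, Krt18, Krt19, Rgs5 and Cnn1 were named after their values were seen.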

Additional observations from a re-analysis of the deposited data

How the results depend on the processing

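The rise of Esr2 between PD16 and PD14 was called under all 13 alternatives other than leaving out a library (log2 change 0.46 to 0.50, adjusted p 0.00548 to 0.0434) and in 8 of the 9 fits without 1 library (0.41 to 0.53, adjusted p 0.0202 to 0.0568). The number of members called between PD16 and PD14 was 1. It was 2 under quantile normalization, which added Pgrmc1 (adjusted p 0.0408; 0.0408 to 0.163 over its 13 alternatives), and 0 to 1 when each library was left out. The number called among the 3 days was 1, and it was 0 with no filter, under quantile normalization, under TPM scaling and with the replicate block, and 0 to 1 when each library was left out. Between PD15 and PD14 and between PD16 and PD15 it stayed at 0 under every alternative run. Among the list genes, Sgk1 and Ddit4 between PD16 and PD14 and Akr1c18 between PD16 and PD15 kept their call under all alternatives run. Every other list call was lost with no filter (33957 genes tested), and of these Tsc22d3, Pparg and Akr1c18 between PD16 and PD14 and Ihh between PD15 and PD14 kept theirs with the replicate block. Member changes near 0 turned their sign. That of Pgrmc2 between PD15 and PD14 was 0.00152 with median-ratio factors, 0.00486 under quantile normalization, 0.0207 with array weights and 0.000499 with voom, and -0.031 to 0.043 without 1 library. Without 1 library the change of Esr1 was -0.066 to 0.074 between PD15 and PD14, -0.031 to 0.091 between PD16 and PD14 and -0.050 to 0.089 between PD16 and PD15. That of Nr3c1 between PD16 and PD15 was -0.026 to 0.065, that of Pgrmc1 -0.069 to 0.015, and that of Greb1 between PD15 and PD14 -0.040 to 0.19. The causes were not tested.

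Counts over all genes moved more. Beside 105, 659 and 113 genes called between PD15 and PD14, PD16 and PD14, and PD16 and PD15, there were 29, 172 and 24 with no filter, 47, 320 and 93 with only the 2 days compared, 184, 944 and 237 with array weights, 168, 676 and 164 with voom, and 3 to 92, 92 to 660 and 14 to 125 without 1 library. A minimum mean of 5 FPKM gave 63, 642 and 114, and TPM scaling 90, 397 and 104. The labels do not say whether replicate numbers pair libraries across days. Correlations of same-numbered deviations ran from -0.21 to 0.16, and not every library was closest to its own number. These few values cannot show whether same-numbered libraries shared a litter or a batch. With the replicate block 24, 227 and 56 genes were called, 127 rather than 469 among the 3 days, and Esr2 between PD16 and PD14 kept its call. Pgr and Nr3c2 rested on 86 to 226 and 109 to 177 fragments per library, for a counting CV of up to 10.8% and 9.58%, below their largest spread within a day of 39.4% and 21.0%.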
